A study of Homo sapiens with 6 samples.

Results

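The 9 genes described here encode the enzymes that supply and limit the deoxynucleotides used for DNA synthesis. They were chosen by name for that function, with earlier results of these data known. They are RRM1, RRM2, TYMS, TK1, DUT, DCTD, DCK, DTYMK and SAMHD1. All 9 were found among the 58884 gene identifiers of the deposited tables, and all 9 passed the filter on low counts. The data came from HCT116, an established human colorectal cancer cell line, in which RNA was sequenced 48 h after transfection of siRNA. The siCTRL group of 3 libraries received the Allstars negative control siRNA, and the siMatrin3 group of 3 libraries received a SMARTpool of siRNAs against Matrin3, the RNA-binding protein encoded by MATR3. Both groups were the same unedited line under the same transfection procedure, and a pool of siRNAs in a single line cannot separate effects of the target from effects of the reagents. The comparison addressed which transcripts differ when Matrin3 is depleted.

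Ribonucleotide reductase converts ribonucleotides to deoxyribonucleotides, which is the rate-limiting step of de novo supply. Its large subunit RRM1 carries the catalytic and regulatory sites, and its small subunit RRM2 carries the radical-generating iron centre and is made mainly in S phase. Thymidine nucleotides need additional enzymes. DCTD and DUT make dUMP, TYMS methylates dUMP to dTMP, DTYMK phosphorylates dTMP, and the salvage kinases TK1 and DCK phosphorylate deoxynucleosides taken up or recycled by the cell, while SAMHD1 hydrolyses deoxynucleoside triphosphates.

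MATR3 was 345 ± 16.7 CPM (read counts scaled to a common library size, mean ± SD, n = 3) in siCTRL and 70.6 ± 2.38 in siMatrin3, which is 20.4% of the control level. These values are for ENSG00000015479. An overlapping identifier of the same symbol and strand, ENSG00000280987, held 375 expected counts over the 6 libraries and is not part of them. Expected counts summed to between 4556658 and 8400412 per library. The first principal component, with 33.2% of the variance, ran from -24.2 to -11.9 in siCTRL and from 17.0 to 23.8 in siMatrin3, so the groups did not overlap. Of 8 epithelial markers 6 were abundant enough to test, and their list summed to between 1603 and 1745 CPM of the library total in siCTRL and between 1768 and 1820.2 in siMatrin3. EPCAM and KRT19 rose, with log2 fold changes of 0.28 ± 0.07 (SE) and 0.23 ± 0.05. The 6 blood markers summed to at most 1.21 CPM in any library, with CD3E and HBB at 0. Only 1 of the 6 fibroblast markers and 2 of the 5 neural markers could be tested, and MAP2 fell by 0.74 on the log2 scale. The part of these markers in the results below was not tested.

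On expected counts, 3 members fell in siMatrin3 (RRM1, RRM2 and DCK), 1 rose (TYMS) and 5 did not pass an adjusted p of 0.05 in edgeR's quasi-likelihood test. Among all 14334 genes tested, 10.9% passed, 5.18% as lower and 5.68% as higher. The members' log2 fold changes ran from -0.39 to 0.29 with a median of 0.11, against a median of -0.00065 over all genes. The CPM values of the groups did not overlap for 5 of the 9 members (the 4 that passed and TK1), against 29.8% of all genes tested. Without a scaling factor between libraries, 3 members passed as lower and 0 as higher, and the split over all genes moved from 814 higher and 743 lower to 419 higher and 1317 lower. In bulk RNA, fewer cells that express a gene and less RNA per cell cannot be told apart.

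**Figure D1:**
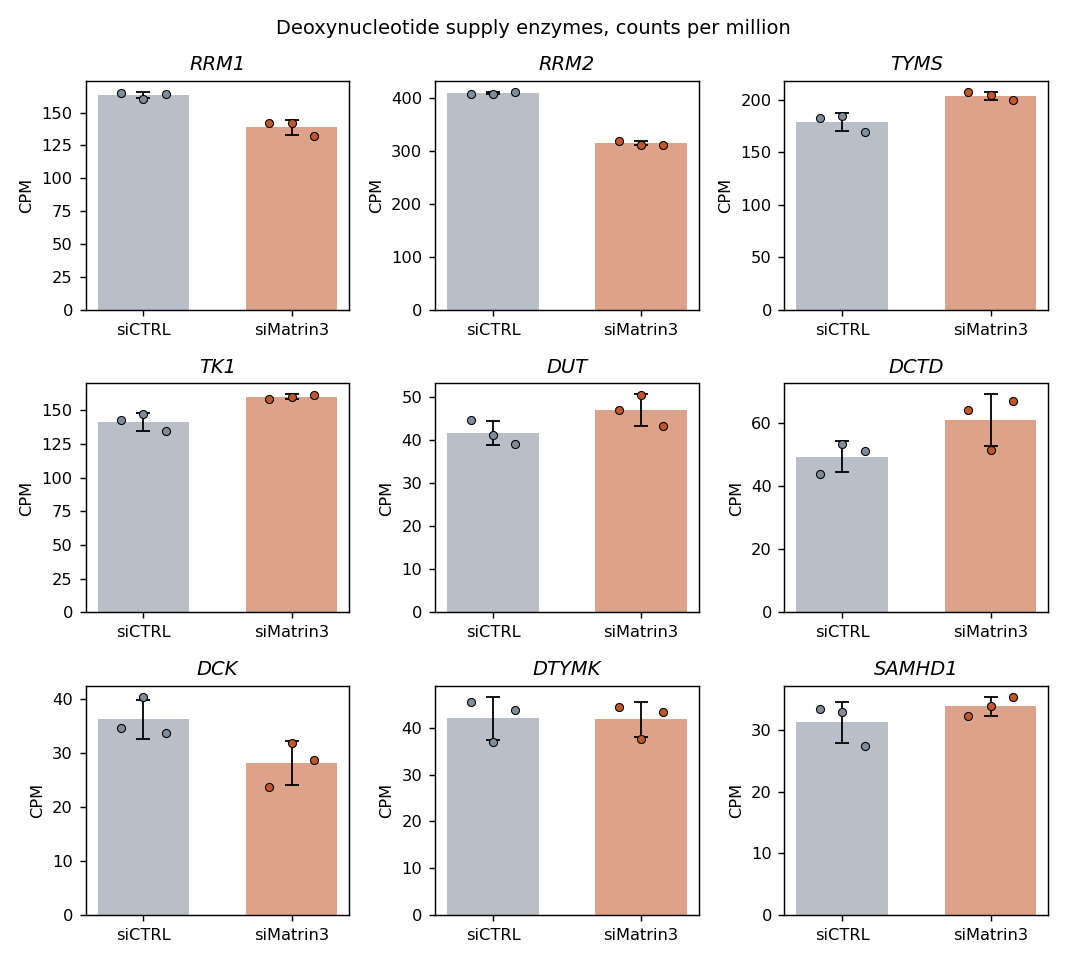
CPM of the 9 members, scaled between libraries, in siCTRL (grey) and siMatrin3 (orange). Points are the 3 libraries of each group, bars the mean and error bars the SD. All 3 siMatrin3 libraries of RRM1, RRM2 and DCK lay below all 3 siCTRL libraries, and those of TYMS and TK1 lay above.

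The promoters of the 4 members that passed are shown, with CCAAT boxes and E2F sites marked. Each sequence is the sense strand from 250 bases before to 50 bases after the RefSeq transcription start in GRCh38.p14, and capitals mark exact matches, on either strand, to the CCAAT box or to an E2F site. The positions are chr11:4094435-4094734 for RRM1, chr2:10122489-10122788 for RRM2, chr4:70993399-70993698 for DCK and chr18:657403-657702 for TYMS, all on the plus strand.
RRM1: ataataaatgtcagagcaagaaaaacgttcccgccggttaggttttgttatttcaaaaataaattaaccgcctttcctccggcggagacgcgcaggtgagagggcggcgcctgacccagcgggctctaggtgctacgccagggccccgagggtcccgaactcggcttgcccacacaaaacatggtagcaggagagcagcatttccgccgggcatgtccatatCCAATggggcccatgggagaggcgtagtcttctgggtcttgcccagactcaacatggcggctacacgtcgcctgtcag
RRM2: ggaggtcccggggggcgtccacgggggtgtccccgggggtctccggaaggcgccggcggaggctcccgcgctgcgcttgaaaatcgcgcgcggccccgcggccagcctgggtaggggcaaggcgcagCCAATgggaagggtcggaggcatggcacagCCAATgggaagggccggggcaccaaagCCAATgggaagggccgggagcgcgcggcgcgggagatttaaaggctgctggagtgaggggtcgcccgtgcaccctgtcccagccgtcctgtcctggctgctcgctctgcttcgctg
DCK: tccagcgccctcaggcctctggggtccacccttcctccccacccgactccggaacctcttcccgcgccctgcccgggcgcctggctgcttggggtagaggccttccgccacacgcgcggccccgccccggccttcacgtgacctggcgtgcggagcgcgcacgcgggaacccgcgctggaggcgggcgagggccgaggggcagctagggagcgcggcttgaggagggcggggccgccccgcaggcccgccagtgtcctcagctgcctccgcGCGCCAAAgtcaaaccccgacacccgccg
TYMS: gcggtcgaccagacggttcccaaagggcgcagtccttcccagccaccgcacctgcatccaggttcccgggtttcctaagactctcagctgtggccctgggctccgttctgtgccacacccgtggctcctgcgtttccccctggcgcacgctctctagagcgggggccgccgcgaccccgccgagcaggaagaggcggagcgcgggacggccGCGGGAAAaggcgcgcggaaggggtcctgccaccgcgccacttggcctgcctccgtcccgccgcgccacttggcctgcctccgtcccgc
The RRM2 promoter held 3 CCAAT boxes, the first base of each lying 123, 93 and 66 bases before the start. The RRM1 promoter held 1 CCAAT box, 28 bases before the start, and no match to an E2F site. DCK and TYMS held 1 E2F match each and no CCAAT box. The DCK match began at base 22 after the start and the TYMS match lay 39 to 32 bases before it, both on the minus strand.

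An E2F site was searched as TTTCCCGC, as TTTCGCGC, as TTTGCCGC and as TTTGGCGC. Of 27305 RefSeq promoters of the same length, 3.33% held such a site, and 2 of the 9 members did. A CCAAT box was present in 35.7% of promoters and in 4 members, since DTYMK and SAMHD1 held 2 boxes each beside those of RRM1 and RRM2. The SP1 motif GGGCGG was present in 44.6% of promoters and in 5 members (RRM1, TK1, DCTD, DCK and DTYMK). The CHR element TTTGAA, an element of cell cycle promoters, was present in 15.4% of promoters and only in RRM1 among the members. Both strands were searched, and no match in the members overlapped another. A match is a description of the window and not evidence of binding. No motif was present in all 3 members that fell, since RRM2 held CCAAT boxes only and DCK held no CCAAT box. RRM1 and RRM2 both held CCAAT boxes, and RRM1 and DCK both held the SP1 motif.

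RRM2 (ENSG00000171848, chr2:10120698-10211725 in the GRCh38 annotation) was the most abundant member. It measured 409, 408 and 412 CPM in the siCTRL libraries and 320.0, 313 and 313 in the siMatrin3 libraries. Each group was tight and the groups were far apart, with the lowest control library well above the highest knockdown library. The log2 fold change was -0.38 ± 0.05 (SE), a change of -23.1%, with an adjusted p of 0.000299 in edgeR. RRM2 passed in 15 of 16 alternative fits and lost the call with effective length as an offset, at -0.22 and an adjusted p of 0.116.

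RRM1 (ENSG00000167325, chr11:4094707-4138932) measured 165, 160.3 and 164 CPM in siCTRL and 142, 142 and 132 in siMatrin3. Every knockdown library lay below every control library. The log2 fold change was -0.23 ± 0.06, a change of -14.9%, with an adjusted p of 0.0180 in edgeR. The call was lost with effective length as an offset, where the log2 fold change was larger at -0.35 and the adjusted p 0.125. It was also lost without siCTRL replicate 1 (-0.23, adjusted p 0.0536), siCTRL replicate 3 (-0.23, 0.0708) or siMatrin3 replicate 3 (-0.20, 0.0831).

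The levels of the subunits are comparable only per length, which TPM, a level scaled by both transcript length and library size, provides. RRM2 measured 224, 218 and 240.1 TPM in siCTRL and 193, 176 and 175 in siMatrin3. RRM1 measured 73.6, 61.4 and 71.2 TPM in siCTRL and 44.7, 56.6 and 48.9 in siMatrin3. Both were lower in every knockdown library than in any control library. The differences on log2(TPM + 1) were -0.32 ± 0.07 for RRM2, with an adjusted p of 0.0604 in limma, and -0.45 ± 0.11 for RRM1, with an adjusted p of 0.0793. The median over all genes on this scale was -0.092, and relative to it the differences were -0.23 for RRM2 and -0.36 for RRM1. No member passed this test, in which 1.04% of genes did (31 higher and 118 lower of 14334, or 74 in all with the replicate number as a block). At an unadjusted p under 0.05, 2560 of the 14334 genes passed in limma, among them RRM1, RRM2 and DCK.

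The RRM2 to RRM1 ratio in TPM was 3.32 ± 0.26 in siCTRL and 3.67 ± 0.61 in siMatrin3 (SD, n = 3), and the groups overlapped. Its log2 difference of 0.13 had an exact two-sided permutation p of 0.4, or 0.5 adjusted over the 3 ratios computed, and 0.1 is the smallest p that 3 libraries against 3 allow. On expected counts the sign turned, at -0.14 with an exact permutation p of 0.1. Without siMatrin3 replicate 1 the difference on TPM was 0.011, and without siMatrin3 replicate 2 it was 0.25. RRM2B, the p53-inducible alternative small subunit, measured 69.8 ± 4.49 CPM in siCTRL and 74.0 ± 5.19 in siMatrin3, a log2 fold change of 0.08 ± 0.08 with an adjusted p of 0.569. The RRM2B to RRM2 ratio in TPM was 0.0911 ± 0.015 in siCTRL and 0.127 ± 0.030 in siMatrin3, with an exact permutation p of 0.3. On expected counts its log2 difference was 0.46, near the 0.47 on TPM, with an exact permutation p of 0.1. The TYMS to TK1 ratio, the balance of de novo and salvage thymidylate enzymes, was 1.53 ± 0.06 and 1.56 ± 0.07, with an exact permutation p of 0.5. The TYMS to TK1 ratio was higher in siMatrin3 in 3 of 3 pairs of same-numbered libraries, by a mean of 0.035 on the log2 scale, with an exact paired permutation p of 0.25, the smallest that 3 pairs allow. The ratios of RRM2 to RRM1 and of RRM2B to RRM2 were each higher in 2 of 3 pairs, with exact paired permutation p of 0.75 and 0.5.

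TYMS (ENSG00000176890, chr18:657653-673578), the thymidylate synthase that is the target of 5-fluorouracil, was the only member to pass as higher on expected counts. It measured 183, 185 and 169 CPM in siCTRL and 207, 204 and 199 in siMatrin3. All knockdown libraries lay above all control libraries. The log2 fold change was 0.19 ± 0.06, an increase of 13.8%, with an adjusted p of 0.0465 in edgeR, close to the threshold. The call held in 6 of 16 alternative fits and was lost on leaving out any library, with an adjusted p between 0.0612 and 0.185. TYMS overlaps ENOSF1 on the opposite strand, a gene with 1913 expected counts over the 6 libraries, and the strand setting of the counting is not given in the sources used here.

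The other enzymes of thymidylate synthesis did not pass on counts. DCTD, which deaminates dCMP to dUMP, measured 43.8, 53.2 and 51.1 CPM in siCTRL and 64.2, 51.5 and 66.9 in siMatrin3. Its siMatrin3 replicate 2 lay within the control range while the other two knockdown libraries lay above it, and the log2 fold change was 0.29 ± 0.10 with an adjusted p of 0.0849 in edgeR. DCTD passed in 3 of 16 alternative fits, among them the edgeR fit without siMatrin3 replicate 2, at an adjusted p of 0.0206. Leaving out any other library gave an adjusted p between 0.0955 and 0.277 in edgeR. On log2(TPM + 1) the DCTD difference was 0.030 ± 0.090, with an adjusted p of 0.890 in limma. DUT, the dUTPase that makes dUMP and keeps uracil out of DNA, measured 44.7, 41.02 and 39.1 CPM in siCTRL and 46.9, 50.5 and 43.2 in siMatrin3. The ranges overlapped, with a log2 fold change of 0.18 ± 0.09 and an adjusted p of 0.225. DTYMK, the dTMP kinase shared by the de novo and salvage routes, measured 45.5, 36.9 and 43.9 CPM in siCTRL and 44.6, 37.6 and 43.4 in siMatrin3, with a log2 fold change of 0.013 ± 0.10. Its direction turned in 5 of 16 alternative fits.

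The salvage kinases differed in sign. DCK (ENSG00000156136, chr4:70992538-71030914), which phosphorylates deoxycytidine, deoxyadenosine and deoxyguanosine and activates gemcitabine and cytarabine, measured 34.5, 40.3 and 33.6 CPM in siCTRL and 23.7, 31.9 and 28.7 in siMatrin3. The highest knockdown library lay just below the lowest control library. The log2 fold change was -0.39 ± 0.12, a change of -23.6%, with an adjusted p of 0.0476 in edgeR. DCK passed in 9 of 16 alternative fits and lost it on leaving out siCTRL replicate 1, 2 or 3 or siMatrin3 replicate 1 or 3, with a log2 fold change between -0.44 and -0.27 and an adjusted p between 0.0755 and 0.214. It was also lost with a filter of CPM of at least 1 (-0.39, adjusted p 0.0561) or the length offset (-0.32, 0.369). DCK shares its strand and part of its span with MOB1B, which had 2687 expected counts over the 6 libraries, so reads of the overlap are uncertain. TK1, the cytosolic thymidine kinase of cycling cells, measured 142, 147 and 134 CPM in siCTRL and 158, 160.0 and 162 in siMatrin3. The groups did not overlap, but the log2 fold change of 0.18 ± 0.06 had an adjusted p of 0.0650 in edgeR. TK1 passed in 2 of 16 alternative fits. These were edgeR with the replicate number as a block, at an adjusted p of 0.0369, and DESeq2, at 0.0397. In the other fits the log2 fold change kept its sign. On log2(TPM + 1) the TK1 difference was 0.050 ± 0.061, with an adjusted p of 0.714 in limma.

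SAMHD1, the triphosphohydrolase that lowers deoxynucleotide pools and is best known for restricting viruses in non-dividing cells, was the least abundant member per length. It measured 33.4, 33.0 and 27.5 CPM in siCTRL and 32.4, 33.95 and 35.4 in siMatrin3. The ranges overlapped, and the log2 fold change was 0.11 ± 0.10 with an adjusted p of 0.527.

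**Figure D2:**
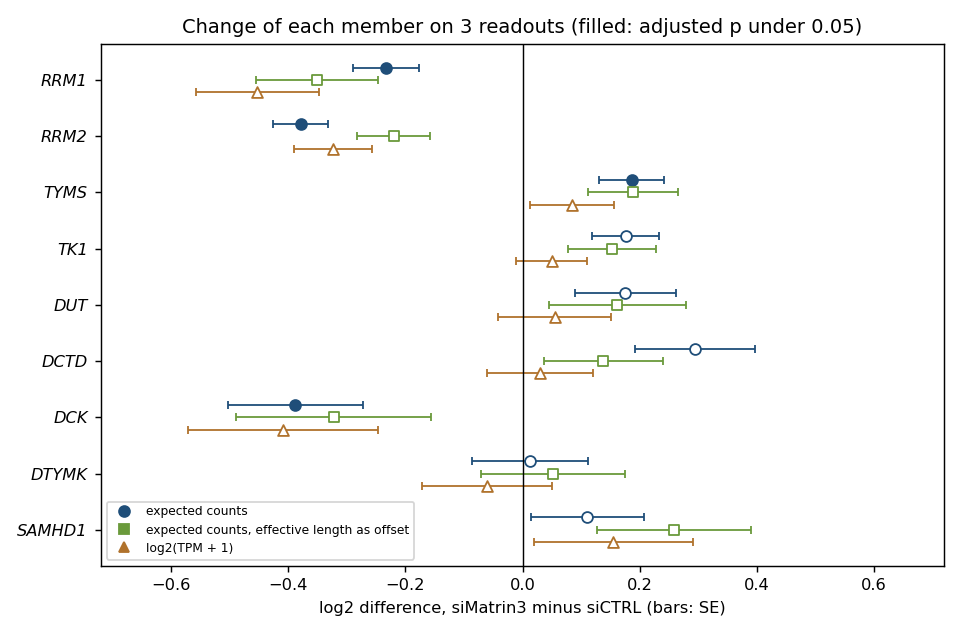
Log2 difference between siMatrin3 and siCTRL for each member on expected counts (circles), on expected counts with effective length as an offset (squares) and on log2(TPM + 1) (triangles), with SE as bars and filled symbols where the adjusted p was under 0.05. RRM1, RRM2 and DCK lay below 0 on every readout, but filled symbols are seen on expected counts only.

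In siCTRL the order of the members by mean TPM was RRM2 (227), TYMS (163), TK1 (107), RRM1 (68.8), DUT (49.2), DTYMK (45.7), DCTD (38.0), DCK (21.1) and SAMHD1 (10.03). Only DUT and DTYMK had overlapping ranges among neighbours in that order. In siMatrin3 RRM2 (181) was first, but its range of 175 to 193 overlapped that of TYMS, 164 to 184. RRM1 (50.1) came after DUT (51.1), and the ranges of these genes overlapped, as did those of RRM1 with DTYMK (43.8) and of DTYMK with DCTD (38.9). RRM2 was above TYMS in each of the 3 knockdown libraries. RRM2 took between 29.8% and 33.0% of the 9 members' summed TPM in siCTRL and between 26.1% and 27.3% in siMatrin3. TYMS took between 21.0% and 23.0% and then between 25.3% and 26.0%. A share of a sum also rises when other members fall. In TPM itself TYMS measured 173, 163 and 153 in siCTRL and 184, 171 and 164 in siMatrin3. The ranges overlapped, and the difference on log2(TPM + 1) was 0.085 ± 0.071, with an adjusted p of 0.573 in limma.

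RSEM also gave an effective length per gene, the average length of its isoforms weighted by their estimated abundance, less the part where no fragment can start. That of RRM2 was 1881, 1891 and 1793 bases in siCTRL and 1607, 1676 and 1668 in siMatrin3. The groups did not overlap, and the log2 difference was -0.17 ± 0.03, a change of -11.01%, with a p of 0.00152 before and 0.385 after adjustment in limma. The table listed 19 RRM2 isoforms, of which 17 matched GENCODE entries of 332 to 3673 bases and 4 were coding, at 3240.0 bases or more. No member passed on effective length, and of the 12269 genes tested 0% did, while 842 had an unadjusted p under 0.05, RRM2 among them.

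RRM1 had effective lengths of 2304, 2633 and 2409 bases in siCTRL and 3082, 2371 and 2519 in siMatrin3, and siMatrin3 replicate 1 lay far above the other two. DCK varied more, from 1586 to 1865 bases in siCTRL and from 1367 to 2239 in siMatrin3. DTYMK was the only other member whose groups did not overlap, at 929 to 966 bases in siCTRL and 889 to 920 in siMatrin3, with an adjusted p of 0.849. The groups thus did not overlap for 2 of the 9 members, against 11% of all genes tested. TPM divides by this length, and the difference on TPM was smaller for RRM2 and larger for RRM1 than the fold change on counts. With effective length as an offset in the count fit no member passed in edgeR, while 204 of 14334 genes did and 2367 had an unadjusted p under 0.05.

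**Figure D3:**
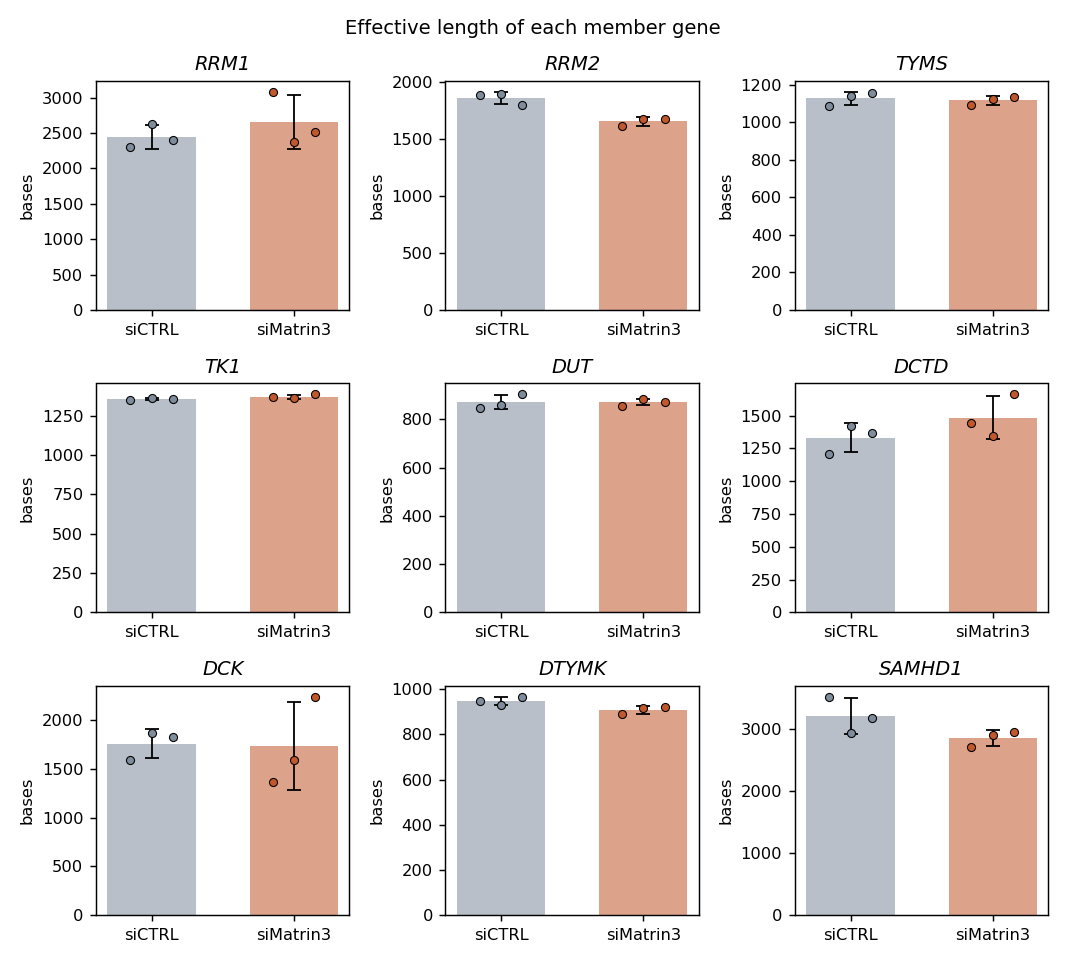
Effective length in bases of the 9 members in siCTRL (grey) and siMatrin3 (orange), with libraries as points, means as bars and SD as error bars. RRM2 lay at 1793 to 1891 bases in siCTRL and at 1607 to 1676 in siMatrin3, whereas RRM1 and DCK each had a knockdown library far above the others.

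Among 50 further genes of nucleotide supply, 48 could be tested, and 11 rose, 1 fell and 36 did not pass, and their log2 fold changes had a median of 0.085. Over all genes 5.68% were higher and 5.18% lower. Without a scaling factor 3 rose and 2 fell, beside 419 higher and 1317 lower of all 14334 genes. Of 2 genes tested in the folate cycle that serves TYMS, 1 rose. It was MTHFD1, which makes folate intermediates, by 0.24 on the log2 scale (188 ± 12.96 to 222 ± 5.69 CPM, adjusted p 0.0227 in edgeR). Of 7 nucleotide kinases tested 2 rose, NME3 by 0.43 and NME4 by 0.34. Of 7 genes of pool cleaning and dephosphorylation, DCTPP1, which hydrolyses dCTP and modified dCTP, rose by 0.36 (adjusted p 0.0134), and the nucleotidase NT5C2 fell by 0.33 on the log2 scale.

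Among the genes of ribonucleotide synthesis, upstream of the reductase, 4 rose and the others did not pass, beside 5.68% of all genes higher and 5.18% lower. Of 12 purine synthesis genes 3 rose: ADSS2 by 0.40 (51.1 ± 0.037 to 67.6 ± 2.89 CPM, adjusted p 0.00277), ATIC by 0.24 and IMPDH2 by 0.21. Of 5 pyrimidine synthesis genes CAD, the enzyme of the first steps, rose by 0.24. Of 8 salvage or breakdown genes 3 rose, namely APRT, UCK2 and PNP, by 0.32, 0.29 and 0.29. No gene passed among 3 mitochondrial and p53-linked genes (RRM2B, TK2 and DGUOK) or among 4 transporters. None of the 48 passed with effective length as an offset, beside 204 of 14334 genes over all.

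**Figure D4:**
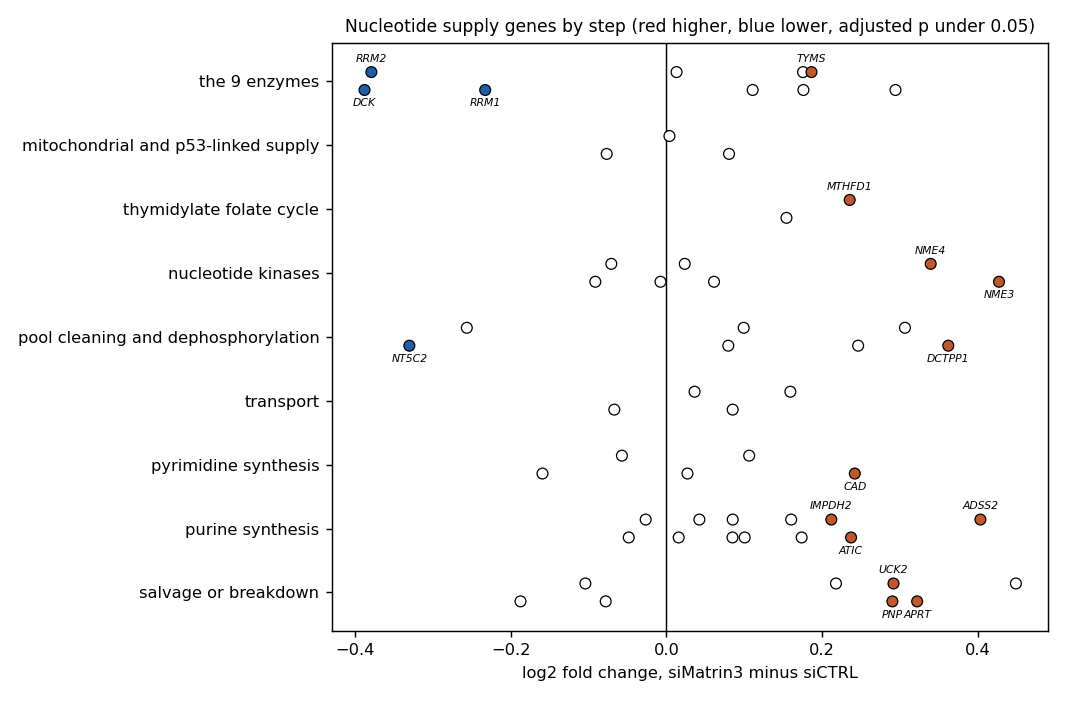
Log2 fold change on expected counts for the 9 members and the 48 other nucleotide supply genes tested, grouped by step, with 1 point per gene (red rose, blue fell, white did not pass). Blue points are RRM1, RRM2, DCK and NT5C2, and each step holds at most 3 red points.

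Of 73 genes that control or accompany the members' expression, 67 could be tested, and 6 rose and 6 fell, with a median of 0.0067, against 5.68% of all genes higher and 5.18% lower. Without a scaling factor 2 rose and 9 fell, beside 419 higher and 1317 lower of all 14334 genes. Of 22 E2F and checkpoint regulators 2 passed, a share near the 10.9% of all genes. E2F3, an activator of S-phase genes, fell by 0.31 on the log2 scale (87.0 ± 5.50 to 70.1 ± 4.80 CPM, adjusted p 0.0177), and ATR, the replication stress kinase, rose by 0.23. E2F1 measured 24.7 ± 3.13 and 25.0 ± 4.98 CPM, and CCNF, the cyclin through which RRM2 protein is degraded, 128 ± 3.15 and 119.8 ± 11.4, and neither passed. Of 20 S phase genes 5 rose (MCM2, MCM3, MCM5, MCM6 and UHRF1, by 0.24 to 0.36), the first 4 of which encode subunits of the replicative helicase. CCNE1 fell by 0.37 and CCNE2 fell by 0.84 on the log2 scale. Of 15 G2 and mitosis genes CENPE fell by 0.50, and of 10 interferon genes tested OAS3 fell by 0.75 and RIGI fell by 0.70. The part of the cell cycle genes in the members' differences was not tested.

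The genes whose CPM pattern over the 6 libraries was most like that of RRM2, among 11456 candidates, were TDG (Pearson r = 0.998), MATR3, ACBD5, SPC25 and API5 (0.995). The libraries fall into 2 groups of 3, so any gene with tight and separate groups scores high, and the order is a description only. TDG, the thymine DNA glycosylase, fell by 0.71 on the log2 scale and SPC25, a kinetochore component, fell by 1.15. API5 did not pass, with a log2 fold change of -0.10 and an adjusted p of 0.218 in edgeR.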

How the data were processed

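RNA of 3 siCTRL and 3 siMatrin3 libraries of HCT116 cells was analysed. Per the submitters' processing notes and the study's methods, the authors used cutadapt, aligned reads to hg19 with TopHat and quantified genes with RSEM. The labels name a stranded mRNA kit and the methods ribosomal depletion. The deposited tables hold expected counts, TPM and effective lengths per gene, and the FPKM column deposited by the authors was not used. Of 58884 identifiers, 58472 (99.3%) had an entry in GENCODE, from which symbols were taken. Expected counts were rounded, filtered with filterByExpr (minimum count 10, total 15), scaled by TMM and tested with edgeR 4.0.16 (R 4.3.3). TPM, as log2(TPM + 1), and log2 effective length were tested with limma 3.58.1. DESeq2 1.42.0 was an alternative, with other scalings, filters, a length offset, a replicate block and left-out libraries. P-values were adjusted over all genes (Benjamini-Hochberg, threshold 0.05). Ratios were tested by exact permutation. Steps were tested on simulated data.

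Some genes of the lists are not reported here. Members and gene lists were chosen with earlier results of these data known. Named genes are all members, MATR3, RRM2B, the pathway, control and marker genes that passed, and the 5 genes with the highest correlation with RRM2. E2F1, CCNF, TK2, DGUOK, CD3E, HBB and the overlapping genes ENOSF1 and MOB1B were added after their values were seen. Replicates of a group differed beyond sampling noise (chi-square divided by its degrees of freedom, 2.62 to 4.37). The methods call them biological triplicates, without saying how the cultures were separated, and p-values measure the spread between these libraries. Same-numbered libraries deviated together from their group means (r = 0.107, 0.104 and 0.157, against -0.084 to -0.024 for other pairs). Deviations from a group mean cancel within the group, so positive values for some pairs force negative ones for others. The numbers were taken to pair the libraries only in the replicate block and the paired test of the ratios. The main tests compared the groups without pairing. Member counts ran from 155 to 3473 reads per library. Motifs and promoter sequences were read from RefSeq promoters for all 9 members.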

Additional observations from a re-analysis of the deposited data

How the results depend on the processing

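The 4 members that passed on expected counts became 2 with a filter of CPM of at least 1, 0 with effective length as an offset and 1 at an adjusted p under 0.01, and between 1 and 4 on leaving out a library. Over all genes, 1557 of 14334 passed in the main fit. The number was 1466 of 15817 with the CPM filter, 204 of 14334 with the offset and 589 of 14334 at 0.01. On leaving out a library between 707 and 1256 genes passed. The member counts were 1 without siCTRL replicate 1, siCTRL replicate 3 or siMatrin3 replicate 3, and 2 without siCTRL replicate 2 or siMatrin3 replicate 1. With the replicate block (paired by number) 5 members passed, TK1 being added, and the block changed no other member's call. Over all genes 2259 of 14334 passed with the block, against 1557 in the main fit. DESeq2 passed 6 members, with TK1 and DCTD (adjusted p 0.0439) added, beside 1589 of 11907 genes over all. With no low-count filter 5 members passed, with DCTD (0.0108) added, beside 1979 of 34319 genes. The block passed 14 nucleotide supply and 15 control genes, against 12 of each in the main fit, beside the same rise over all genes. The paired test of the ratios was chosen after seeing the data. The 12 nucleotide supply genes became 5 without a scaling factor (1736 of 14334 over all genes), 0 with the length offset, 1 at an adjusted p under 0.01, and 2 to 10 on leaving out a library. The 12 control genes became 1 with the length offset, 5 at an adjusted p under 0.01, and 5 to 13 on leaving out a library. With TPM and effective length, 0 members passed under every alternative run. The RRM2 to RRM1 ratio turned to -0.14 on expected counts and ran from 0.011 to 0.25 on TPM on leaving out a library, and the TYMS to TK1 log2 difference ran from -0.0015 to 0.068 on leaving out a library. The cause of these changes was not tested, except that leaving out a library lowers the sample number.

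Members near 0 changed sign. DTYMK on expected counts was -0.065 without a scaling factor, -0.0066 with the replicate block and between -0.087 and 0.079 on leaving out a library. DTYMK on TPM was 0.00065 after rescaling over nuclear protein-coding genes. On leaving out a library, TPM differences ran from -0.0019 to 0.13 for DUT, -0.041 to 0.077 for DCTD and -0.15 to 0.023 for DTYMK, and effective length differences from -0.00038 to 0.19 for RRM1, -0.037 to 0.0055 for TYMS, -0.017 to 0.028 for DUT and -0.25 to 0.10 for DCK. The number of 3 libraries per group and the 155 reads of the least covered member limit the detection of small differences.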
